A study of Mus musculus with 36 samples.

Results

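Hepatic RNA of 10 genes was followed: Srebf1, which encodes the transcription factor SREBP-1c, and 9 genes of fatty acid synthesis or linked to it, namely Fasn, Acly, Acaca, Acacb, Scd1, Elovl6, Me1, Thrsp and Pnpla3. They were taken as the probe sets whose annotated symbol is one of these names. Each of the 10 had exactly 1 probe set, so that 10 of 41345 probe sets, and 10 of the 22180 genes named by a single symbol, are described. The Srebf1 probe set was taken by gene symbol alone. Its values are therefore not assigned here to SREBP-1c or to SREBP-1a, the longer product of the same gene.

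Livers came from mice on a C57BL/6 background kept in 12 h of light and 12 h of dark. WT mice were compared with mice labelled TB, whose labels list lung adenocarcinoma as their disease. The TB mice carry engineered alleles that the WT mice lack, so the tumour and the genotype cannot be told apart. The age and sex of the mice are not stated in the sources used here. Over all 36 arrays the Y-linked RNAs Eif2s3y, Uty and Kdm5d read 139 to 273, 99.5 to 195 and 74.2 to 126 intensity units. Xist, made from the inactive X chromosome, read 17.3 to 35.7. Livers were taken at Zeitgeber time (ZT, hours from lights on) 0, 4, 8, 12, 16 and 20. With 3 arrays per combination of genotype and ZT, 12 groups and 36 arrays were available. The labels number the replicates but do not say that each is another mouse, so the p-values rest on the spread among samples whose source, biological or technical, is unknown.

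In liver, insulin and feeding raise SREBP-1c, and carbohydrate acts through another factor, ChREBP. Together they raise the enzymes that turn surplus glucose carbon into fat. ATP-citrate lyase (Acly) makes cytosolic acetyl-CoA from citrate, acetyl-CoA carboxylases (Acaca and Acacb) make malonyl-CoA, and fatty acid synthase (Fasn) builds palmitate with NADPH that malic enzyme (Me1) helps to supply. Elovl6 lengthens palmitate to stearate and Scd1 desaturates the product. Thrsp (Spot 14) is a lipogenic cofactor, and Pnpla3 is a lipid droplet protein that is itself an SREBP-1c target. Mice are nocturnal and eat mainly in the dark phase, and lipogenic RNA follows the clock and feeding together.

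Promoters of the 4 members that passed the rhythm test in TB liver are shown, because these RNAs moved over the day in the same genotype. Each is the 250 bases before the start that RefSeq gives in assembly GRCm38.p6, 5′ to 3′ on the strand of the gene. Fasn lies at chr11:120824548-120824797 on the minus strand, Acly at chr11:100528001-100528250 on the minus strand, Acacb at chr5:114165268-114165517 on the plus strand and Thrsp at chr7:97417551-97417800 on the minus strand. Capitals mark CCAAT boxes (CCAAT, or ATTGG where it lies on the other strand) and GC boxes (GGGCGG, or CCGCCC), which are recognised by the NF-Y and Sp1 families.
Fasn: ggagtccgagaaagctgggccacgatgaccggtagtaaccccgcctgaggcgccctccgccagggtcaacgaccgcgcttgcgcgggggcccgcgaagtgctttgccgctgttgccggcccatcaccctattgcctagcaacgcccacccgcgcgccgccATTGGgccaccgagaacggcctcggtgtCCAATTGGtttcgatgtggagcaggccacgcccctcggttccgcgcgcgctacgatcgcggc
Acly: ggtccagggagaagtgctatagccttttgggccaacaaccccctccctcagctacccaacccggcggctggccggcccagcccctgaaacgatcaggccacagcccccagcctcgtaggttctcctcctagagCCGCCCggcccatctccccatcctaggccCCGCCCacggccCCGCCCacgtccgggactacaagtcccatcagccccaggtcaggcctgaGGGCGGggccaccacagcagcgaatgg
Acacb: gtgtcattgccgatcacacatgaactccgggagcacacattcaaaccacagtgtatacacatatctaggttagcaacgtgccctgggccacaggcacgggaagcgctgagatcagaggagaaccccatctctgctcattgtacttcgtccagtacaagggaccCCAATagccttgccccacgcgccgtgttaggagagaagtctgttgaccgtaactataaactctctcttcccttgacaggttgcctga
Thrsp: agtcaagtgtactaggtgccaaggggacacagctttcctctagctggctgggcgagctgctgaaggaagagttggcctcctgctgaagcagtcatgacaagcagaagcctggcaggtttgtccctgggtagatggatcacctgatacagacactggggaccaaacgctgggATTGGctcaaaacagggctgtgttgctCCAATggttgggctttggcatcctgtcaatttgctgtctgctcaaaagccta

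Both strands were searched for 5 motifs in the windows of 9 members, 12 windows in all, since Srebf1 has 3 starts and Me1 has 2 in RefSeq. The CCAAT box was present for 6 of the 9 members, in 7 of 12 windows, against 33.8% of all 32851 promoter windows of that length. Fasn held 3 of them, between 90 and 55 bases before the start, with the last pair overlapping. Thrsp held 2, between 79 and 48 bases before its start, and Acacb held 1. The GC box was present for 4 members, in 5 windows, against 32.7% of all windows, and Acly held 4. The E-box bound by CLOCK and BMAL1 (CACGTG, in 6.02% of all windows), the sterol regulatory element (TCACNCCAC, in 1.05%) and the D-box (TTANNTAA, in 5.43%) were not found in the members' windows. That says only that these letters are not in these 250 bases.

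The arrays carried liver RNA. Albumin (Alb) stood at 11322 to 12943 intensity units on all 36 arrays, and Dbp, a clock output gene, had its fitted peak at ZT 10.5 in WT and ZT 10.1 in TB. All 12 measured clock genes passed the rhythm test in WT and 11 did in TB. Within groups, the arrays fell into a larger set of 24 and a smaller set of 12, with 1 array of the smaller set in each of the 12 groups. These sets were found from the first principal component, the main axis of joint variation, of probe sets without a gene name. That component accounts for 28.6% of the variance of those probe sets within groups. The sets are not in the labels. WT ZT 12 replicate 3 held skeletal muscle RNA: titin (Ttn) stood at 111510 against a median of 27.9 over all arrays, and muscle creatine kinase (Ckm) at 109630 against 57.6. Where leaving out that array, keeping to the larger set, or fitting the set as a block changes a call of a member, the value stands beside the result. In whole liver, fewer cells of a type and less RNA per cell cannot be told apart.

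**Figure D1:**
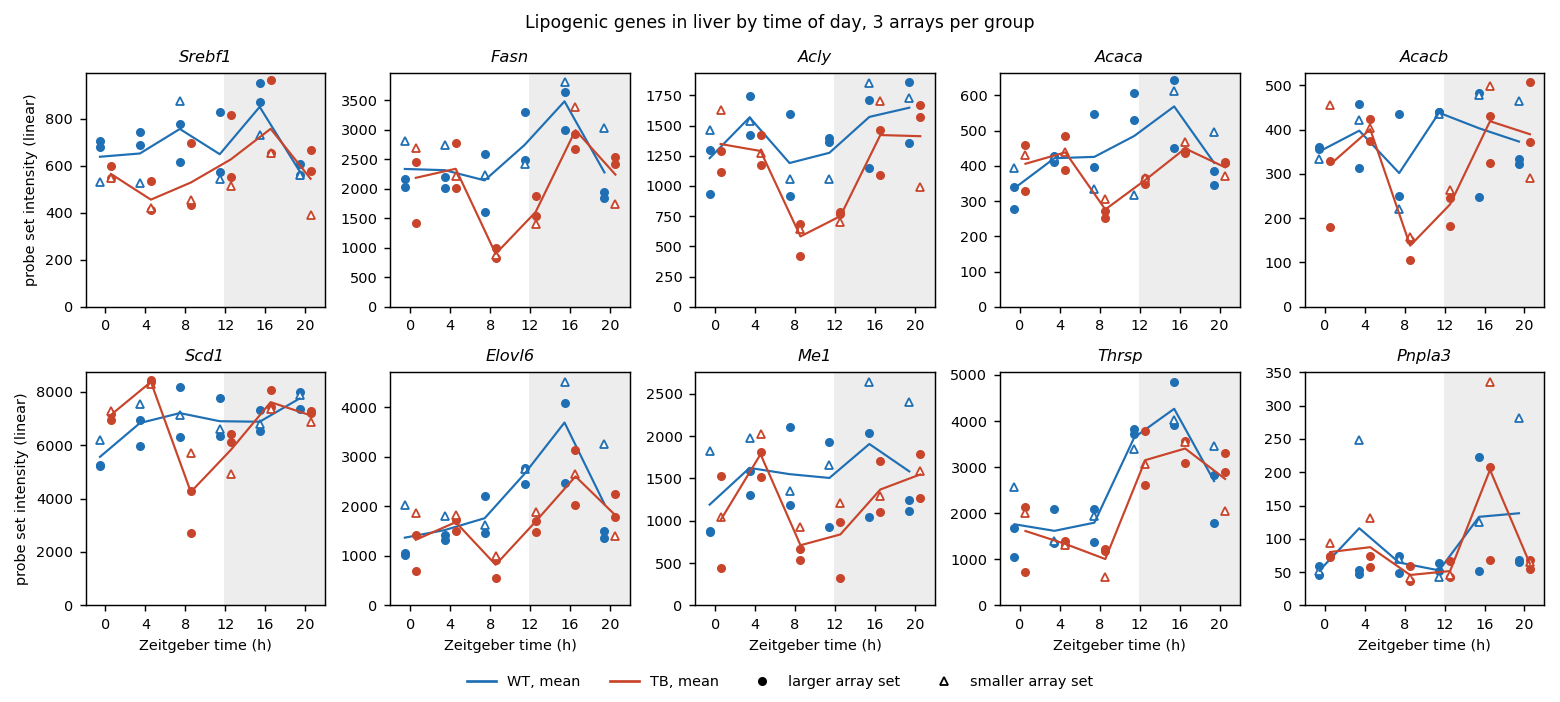
Probe set intensity (linear, from 0) of the 10 genes against Zeitgeber time in h, with WT in blue and TB in red. Each point is 1 array (filled circles, larger array set; open triangles, smaller set), lines join the means of 3 arrays, and grey marks the dark phase. At ZT 8 the 3 TB arrays lie below the 3 WT arrays for every gene except Srebf1 and Pnpla3.

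The group means of 9 of the 10 genes were lowest in TB liver at ZT 8, and those of 6 were highest in WT liver at ZT 16. The exception at the low end was Srebf1. Its WT intensities were 679, 707 and 529 at ZT 0, 525, 742 and 690.4 at ZT 4, 616, 874 and 779 at ZT 8, 828, 575 and 545 at ZT 12, 732, 950.5 and 869 at ZT 16, then 562, 560.4 and 608 at ZT 20. In TB liver the Srebf1 arrays read 546, 600.1 and 549 at ZT 0, 422, 410.0 and 536 at ZT 4, 435, 456 and 695 at ZT 8, 551, 817 and 513 at ZT 12, 653, 654 and 965 at ZT 16, then 668, 389 and 577 at ZT 20. The mean of 456 ± 69.7 intensity units (SD, n = 3) in TB at ZT 4 was the lowest of the 12 groups, and WT and TB arrays overlapped at every ZT. Of the 11 steps between neighbours in the order of its group means, none exceeded the larger SD of the 2 groups. The order of the Srebf1 levels is therefore not resolved step by step by 3 arrays.

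Fasn, the enzyme complex that assembles palmitate, had its trough in TB liver at ZT 8. The WT intensities of Fasn were 2169, 2027 and 2813 at ZT 0, 2745, 2195 and 2009 at ZT 4, 1606, 2232 and 2591 at ZT 8, 3308, 2496 and 2427 at ZT 12, 3809.9, 2999 and 3639.6 at ZT 16, then 1948, 3035 and 1850.1 at ZT 20. In TB liver Fasn read 1422, 2449 and 2688 at ZT 0, 2218, 2021 and 2779.8 at ZT 4, 825, 875 and 995 at ZT 8, 1534, 1884 and 1397 at ZT 12, 3385, 2922 and 2673 at ZT 16, then 2429, 1749 and 2545 at ZT 20. The 3 TB arrays at ZT 8 were the lowest of all 36, and TB arrays also lay wholly below WT arrays at ZT 12. By ZT 16 the genotypes overlapped again. In the order of group means, 3 of 11 steps exceeded the larger SD, and the last of them, from TB ZT 12 to TB ZT 8, was 0.82 log2 against an SD of 0.22.

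Acly, which feeds acetyl-CoA into the pathway, had the same low groups. Its WT arrays read 937, 1294 and 1459 at ZT 0, 1535, 1742 and 1425 at ZT 4, 914, 1057 and 1598 at ZT 8, 1398, 1364 and 1062 at ZT 12, 1849, 1149.7 and 1715 at ZT 16, then 1358, 1724 and 1861 at ZT 20. The TB arrays of Acly were at 1118, 1292 and 1631 at ZT 0, 1271, 1419.9 and 1177 at ZT 4, 422, 643 and 682 at ZT 8, 782, 768 and 701 at ZT 12, 1706, 1091 and 1467 at ZT 16, then 1575, 994 and 1667 at ZT 20. The 6 TB arrays of ZT 8 and ZT 12 were the lowest 6 of the 36. WT and TB did not overlap at ZT 4, 8 or 12, and overlapped at ZT 0, 16 and 20.

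Acaca, the cytosolic acetyl-CoA carboxylase that commits carbon to synthesis, lay between 252 and 305 intensity units in TB liver at ZT 8 and between 334 and 547 in WT. At ZT 12 its TB arrays read 364, 349 and 366 and its WT arrays 608, 531 and 317. The low WT value at ZT 12 was the array with muscle RNA. Acacb, the carboxylase at the outer mitochondrial membrane whose product restrains fatty acid oxidation, was at 362, 355 and 334 at ZT 0, 422, 457 and 313 at ZT 4, 249, 221 and 435 at ZT 8, 439, 438 and 436 at ZT 12, 478, 249 and 482 at ZT 16, then 333, 463 and 322 at ZT 20 in WT. Its TB arrays read 179.9, 329 and 455 at ZT 0, 404, 424 and 374 at ZT 4, 105, 158 and 151 at ZT 8, 183, 246 and 264 at ZT 12, 499, 432 and 325 at ZT 16, then 507, 290.4 and 371 at ZT 20. For Acacb the 3 TB arrays at ZT 8 were again the lowest of the 36, and the genotypes did not overlap at ZT 8 or ZT 12.

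Scd1, the desaturase that makes oleate and palmitoleate, was the only member whose TB arrays lay wholly above the WT arrays at more than 1 time. In WT liver it read 5267, 5211 and 6199 at ZT 0, 7544, 6957 and 5971 at ZT 4, 6296, 7112 and 8183 at ZT 8, 6331, 7754 and 6593 at ZT 12, 6781, 6534 and 7304 at ZT 16, then 7368, 7872 and 7988 at ZT 20. In TB liver Scd1 read 7175, 6935 and 7282 at ZT 0, 8272, 8452 and 8363 at ZT 4, 2728, 5720.5 and 4288 at ZT 8, 6432, 6109.9 and 4903 at ZT 12, 7337, 8056 and 7423 at ZT 16, then 7190.1, 6867 and 7279 at ZT 20. TB exceeded WT without overlap at ZT 0, 4 and 16, and lay below WT without overlap at ZT 8 and 20. The TB group at ZT 4 was the highest of the 12 and the TB group at ZT 8 the lowest.

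Elovl6, which lengthens palmitate, read 1009, 1057 and 2033 at ZT 0, 1812, 1423 and 1323 at ZT 4, 1457, 1619 and 2199 at ZT 8, 2445, 2778 and 2742 at ZT 12, 4511, 2477 and 4074 at ZT 16, then 1506, 3262 and 1367 at ZT 20 in WT. Its TB arrays were at 688, 1420.2 and 1863 at ZT 0, 1821, 1500.1 and 1716 at ZT 4, 554, 991 and 914 at ZT 8, 1471, 1712 and 1886 at ZT 12, 2648, 3139.7 and 2017 at ZT 16, then 1789, 1407 and 2256 at ZT 20. WT at ZT 16 was the highest group, and TB lay below WT without overlap at ZT 8 and ZT 12. Me1, a source of cytosolic NADPH, varied more within groups: the 3 WT arrays at ZT 16 alone spanned 2641, 1044 and 2032. At ZT 8 its TB arrays read 535, 926 and 671 and its WT arrays 1183, 1356 and 2111, which did not overlap. No step in the order of the group means exceeded the larger SD for Elovl6 or for Me1.

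Thrsp had the largest fitted amplitude of the 10 genes in both genotypes. The WT arrays read 1042, 1674 and 2565 at ZT 0, 1394, 2100.0 and 1359 at ZT 4, 1366, 1933 and 2086 at ZT 8, 3708, 3832 and 3389.5 at ZT 12, 4022, 3920.3 and 4854 at ZT 16, then 2837, 3468 and 1786 at ZT 20. The TB arrays of Thrsp read 715, 2125 and 2003 at ZT 0, 1304, 1308 and 1388 at ZT 4, 1227, 611 and 1180.2 at ZT 8, 2614, 3782 and 3057 at ZT 12, 3550.5, 3575 and 3085 at ZT 16, then 2888, 2038 and 3307 at ZT 20. Both genotypes were low from ZT 0 to ZT 8 and high at ZT 12 and ZT 16, and TB lay wholly below WT at ZT 8 and ZT 16. Pnpla3 read between 36.8 and 93.8 intensity units on most arrays, with 7 arrays above that. At ZT 16 its arrays read 125, 51.0 and 223 in WT and 336, 207 and 67.5 in TB, so that 2 of 3 were high in each genotype. The 3 other high values were the lone high arrays of their groups, 249 in WT at ZT 4, 281 in WT at ZT 20 and 132 in TB at ZT 4. All 3 belong to the smaller array set, as do 125 in WT and 336 in TB at ZT 16. The 223 and 207 at ZT 16 belong to the larger set. Smaller-set arrays at ZT 0, 8 and 12, and in TB at ZT 20, did not exceed 93.8.

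The comparison of the genotypes over the whole day asks whether lipogenic RNA differs between the livers irrespective of time. No member passed the adjusted threshold of 0.05 in limma, where 0.0586% of all 22180 genes were called lower in TB and 0.117% higher. The estimates of all 10 were negative. Differences here are TB minus WT on the log2(intensity + 16) scale with the standard error of the fit to all 36 arrays. Fasn was at -0.39 ± 0.09, a ratio of 0.765, with an adjusted p of 0.0625. Acly was at -0.38 ± 0.09 with an adjusted p of 0.0877. These 2 enzymes came nearest to the threshold, and each was lower in TB at 5 of 6 times.

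Srebf1 itself was at -0.25 ± 0.09 (adjusted p = 0.234) and was lower in TB at all 6 times. Acacb was at -0.32 ± 0.11 (adjusted p = 0.235), Elovl6 at -0.37 ± 0.13 (0.246) and Me1 at -0.43 ± 0.17 (0.333). Thrsp was at -0.30 ± 0.13 (0.380) and Acaca at -0.16 ± 0.08 (0.414). Scd1 at -0.06 ± 0.06 (0.762) and Pnpla3 at -0.03 ± 0.20 (0.975) were within 1 standard error of 0. The median of the 10 estimates was -0.31, beside 0.01 over all genes, of which 46.2% were negative. Unadjusted p-values fell under 0.05 for 8 members and for 2449 of all genes.

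Without WT ZT 12 replicate 3, the array that held muscle RNA, the estimate was -0.40 for Fasn, -0.40 for Acly and -0.27 for Srebf1, with adjusted p of 0.0547, 0.0653 and 0.173. With the array set as a block, Fasn (adjusted p = 0.0305) and Acly (0.0477) passed the threshold, and in the larger set alone Acly did (0.0494). Of the 10 members, 9 were negative in both array sets. The exception was Pnpla3, at 0.06 in the larger and -0.20 in the smaller one. Fasn alone passed the threshold without WT ZT 8 replicate 1 (adjusted p = 0.0469), and Fasn (0.0273) and Acly (0.0468) did without TB ZT 0 replicate 3, so single arrays decide these calls.

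**Figure D2:**
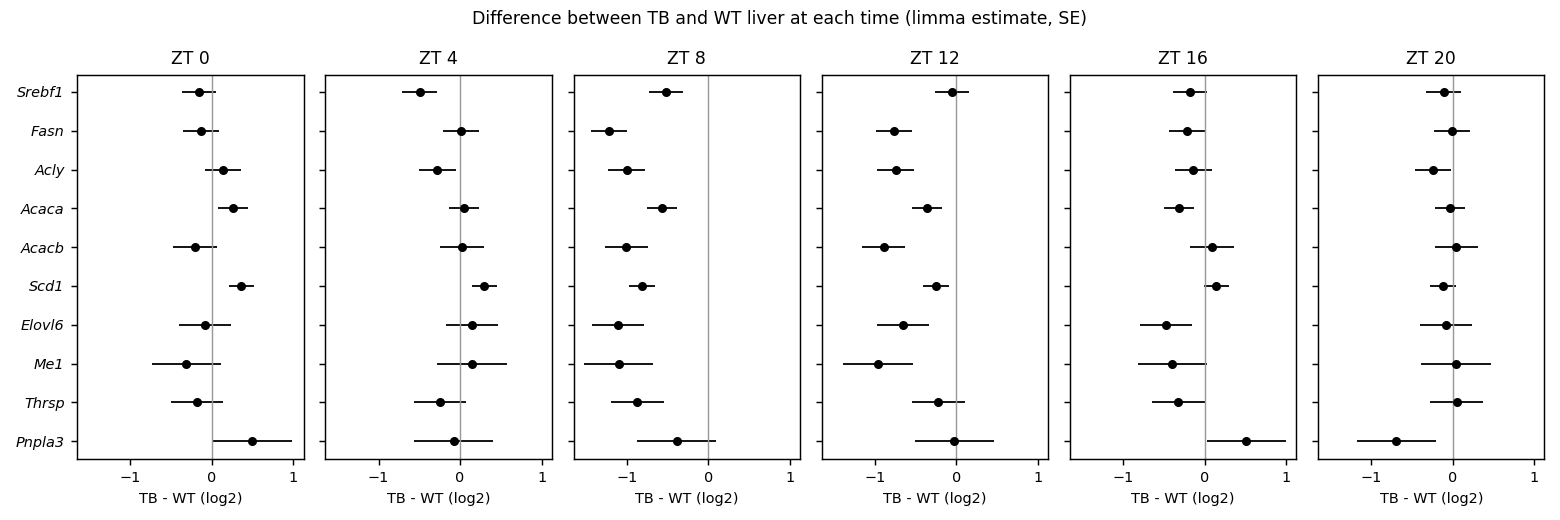
TB minus WT difference on the log2(intensity + 16) scale for each of the 10 genes at the 6 Zeitgeber times, as the limma estimate with its standard error. All 10 estimates are negative at ZT 8 and at ZT 12, and they scatter around 0 at ZT 0, 4 and 20.

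The comparison at each ZT asks when in the day the livers differ. The median difference over the 10 members was -0.93 at ZT 8, late in the light phase, and -0.51 at ZT 12, when lights go off. At ZT 0, 4, 16 and 20 the medians were -0.11, 0.02, -0.20 and -0.06. Over all genes the median was -0.02 at ZT 8 and 0.02 at ZT 12. No member passed the adjusted threshold at any ZT, and the share of all genes that did was 0.00451% at ZT 8 (1 gene) and 0% at each of the 5 other times. Summed over the 6 times, that 1 call became 3 with the array set as a block, 30 in the larger set alone, 65 with array weights and 0 to 22 with single arrays left out, where 22 was without WT ZT 12 replicate 1.

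At ZT 8 the estimate for Fasn was -1.22 ± 0.22, a ratio of 0.430, with an unadjusted limma p of 5e-06 and an adjusted p of 0.0551. Scd1 was at -0.81 with an adjusted p of 0.0706. Next by p came Acly at -0.999 (0.269) and Acacb at -1.004 (0.514). Elovl6 was at -1.11 (0.616) and Me1 at -1.10 (0.824), larger estimates with wider spread. Acaca was at -0.57 (0.748), Thrsp at -0.87 (0.813), Srebf1 at -0.52 (0.854) and Pnpla3 at -0.38 (1.00). The synthesis enzymes thus had ratios of 0.673 (Acaca) to 0.430 (Fasn), beside 0.697 for the factor Srebf1. Fasn passed the threshold at ZT 8 (adjusted p of 0.0174 to 0.0498) when 1 of 9 arrays was left out: WT ZT 8 replicate 1, WT ZT 12 replicate 1, any WT array of ZT 20, TB ZT 0 replicate 1 or 3, TB ZT 4 replicate 1 or TB ZT 20 replicate 2. Scd1 passed without TB ZT 8 replicate 2, at -1.06 with an adjusted p of 0.00123. With the array set as a block Fasn passed (0.0401), and in the larger set alone Scd1 did, at -1.07 (0.0277). Unadjusted p-values fell under 0.05 for 9 of the 10 members at ZT 8, beside 818 of all genes (3.69%) in the lower direction.

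TB arrays lay wholly below WT arrays at ZT 8 for 8 of 10 members, where 5.85% of all genes did so. Srebf1 and Pnpla3 overlapped. At ZT 12 this held for 4 members, Fasn, Acly, Acacb and Elovl6, against 4.26% of all genes. It held for Acly at ZT 4 (4.58% of all genes), for Thrsp at ZT 16 (5.36%), for Scd1 at ZT 20 (3.30%) and for no member at ZT 0 (2.20%). In the other direction, TB lay wholly above WT for Scd1 and Pnpla3 at ZT 0 (4.27% of all genes), for Scd1 at ZT 4 (4.80%) and for Scd1 at ZT 16 (7.98%). The members were chosen with earlier results of these data known, so these counts are no independent test.

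At ZT 12 the estimates were -0.96 for Me1, -0.89 for Acacb, -0.76 for Fasn, -0.74 for Acly and -0.65 for Elovl6. Acaca was at -0.36, Scd1 at -0.25 and Thrsp at -0.22, while Srebf1 at -0.05 and Pnpla3 at -0.02 were near 0. Adjusted p-values ran from 0.457 (Fasn) to 0.996 (Pnpla3). Without the array that held muscle RNA, which is 1 of the 3 WT arrays here, Acaca was at -0.64 and Srebf1 at -0.16, Fasn at -0.85 and Acly at -0.87. The sign of Srebf1 at ZT 12 was not stable to single arrays, with estimates from -0.26 to 0.13 when each array was left out in turn. The size of the Me1 estimate at ZT 12 was not stable either, at -1.32 to -0.39 over all alternatives run. Its TB arrays there read 322, 987 and 1205.

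At ZT 8 all 10 members were negative in both array sets, with Fasn at -1.16 in the larger and -1.34 in the smaller set. The smaller set holds 1 array per group, so its values have no spread of their own. Acaca was at -0.79 and -0.12, and Thrsp at -0.48 and -1.64, in the respective sets. At ZT 12 the smaller set pairs the WT array with muscle RNA with 1 TB array, and there Acaca was at 0.20 and Pnpla3 at 0.08, while the other 8 members were negative.

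Markers of other cells gave these values in the same groups. The summed intensity of 6 adipocyte markers, a cell type that also makes fatty acids, ranged from 337 to 454 in WT and from 352 to 456 in TB at ZT 8. The adipocyte hormone adiponectin (Adipoq) lay between 43.5 and 101 on all arrays, and leptin (Lep) between 6.14 and 34.3. Fabp4, another of the 6, ran from 26.5 to 330 with a median of 69.7. Its highest value was in WT ZT 12 replicate 3, the array that held muscle RNA. Adipocyte sums at ZT 12 ran from 329 to 670 in WT and from 354 to 406 in TB. The sum of 9 hepatocyte markers ranged from 60452 to 63311 in WT and from 59510 to 62554 in TB at ZT 8. The sums of 8 Kupffer cell markers were 1272 to 1687 and 1226 to 1859. At ZT 8 and ZT 12 the ranges of the sums overlapped between the genotypes for all 9 marker lists. For skeletal muscle at ZT 12 the overlap came only from the array with muscle RNA. The WT muscle sums there were 490, 538 and 280480, and the TB muscle sums ran from 607 to 636. Cholangiocyte sums at ZT 8 were 246 to 294 in WT and 186 to 256 in TB. At ZT 16, where Thrsp lay below WT in every TB array and Scd1 above, Kupffer cell sums ran from 883 to 1169 in WT and from 1324 to 2157 in TB, and adipocyte sums from 329.5 to 349 and from 381 to 435. At ZT 0, where Scd1 and Pnpla3 lay above WT in every TB array, the hepatocyte sums (55833 to 57688 in WT, 59298 to 61868 in TB) and stellate cell sums (2056 to 2458, 3012 to 3768) were higher in TB without overlap. So were stellate cell sums at ZT 20 (2273 to 2468, 2670.1 to 2993), while endothelial sums were lower in TB at ZT 4 (1748 to 1798, 1443 to 1634). The part of these cells in the members' values was not tested.

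Whether the genotype difference depends on ZT was asked by an interaction F test. No member and 0% of all genes passed it, with 550 genes and 5 members under an unadjusted p of 0.05. Scd1 had an unadjusted p of 9.3e-05 and an adjusted p of 0.529, and it passed at 0.0130 without TB ZT 8 replicate 2, the highest of the 3 TB arrays there. Fasn had an unadjusted p of 0.00161 and, like the 8 other members, an adjusted p of 1.00. The contrast of ZT 8 with the other times was not tested by itself.

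**Figure D3:**
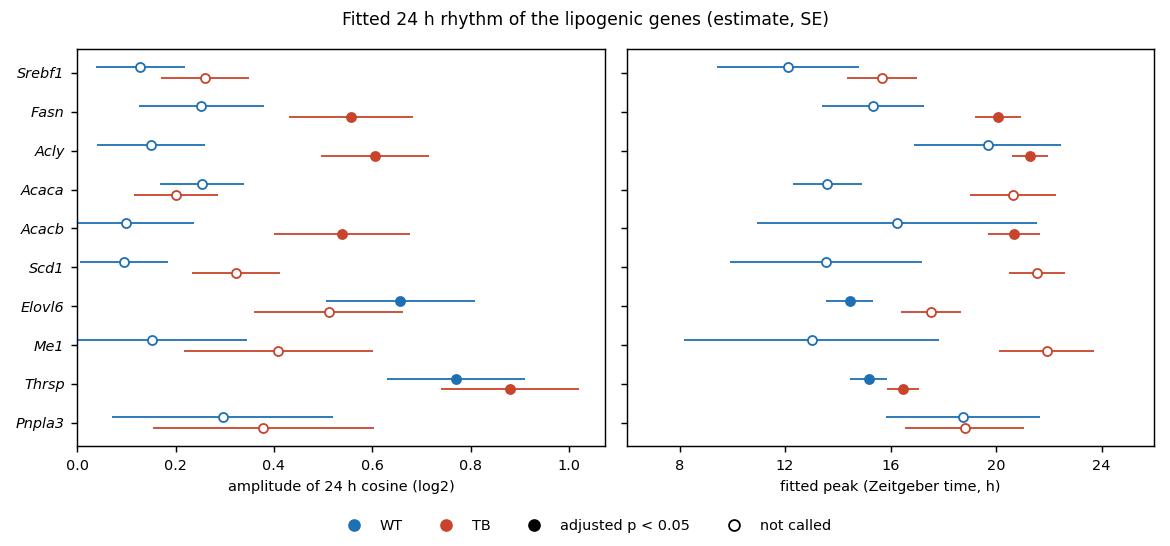
Amplitude (log2) and peak time (Zeitgeber time in h) of a 24 h cosine fitted to each gene in WT (blue) and TB (red), with standard errors. Filled symbols have an adjusted p under 0.05: Elovl6 and Thrsp in WT, and Fasn, Acly, Acacb and Thrsp in TB.

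A 24 h cosine asks whether each gene cycles over the day in each genotype. In WT liver 2 members passed the test, Thrsp and Elovl6, where 6.45% of all genes were called. Thrsp had an amplitude, the height of the cosine above its mean, of 0.77 log2 and a peak at ZT 15.2 ± 0.7 h (adjusted p = 0.00112). Elovl6 had an amplitude of 0.66 and a peak at ZT 14.4 ± 0.9 h (adjusted p = 0.0148). Both peaks lie in the first part of the dark phase. From trough to peak the fits span a ratio of 2.91 for Thrsp and 2.49 for Elovl6.

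In TB liver 4 members passed, where 4.95% of all genes were called. Thrsp had an amplitude of 0.88 and a peak at ZT 16.5 ± 0.6 h (adjusted p = 0.000239), a trough-to-peak ratio of 3.39. Acly had an amplitude of 0.61 and a peak at ZT 21.3 ± 0.7 h (adjusted p = 0.00146). For Fasn the amplitude was 0.56 and the peak at ZT 20.1 ± 0.9 h (adjusted p = 0.0161). Acacb had an amplitude of 0.54 and a peak at ZT 20.7 ± 1.0 h (adjusted p = 0.0421). These are peaks of the fitted cosine, not the times of the highest arrays. The TB group means of Fasn, Acly and Acacb were highest at ZT 16 and lowest at ZT 8. On the log2(intensity + 16) scale they were 11.55, 10.465 and 8.74 at ZT 16, and 11.12, 10.444 and 8.63 at ZT 20. Scd1 at 0.32 (0.0685) and Elovl6 at 0.51 (0.102) did not pass.

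The amplitudes of the 3 enzymes called in TB alone were 0.25 for Fasn, 0.15 for Acly and 0.10 for Acacb in WT, with adjusted p of 0.527, 0.783 and 0.943. The median amplitude over the 10 members was 0.20 in WT and 0.46 in TB, beside 0.09 in both genotypes over all genes. These values do not establish a difference in rhythm: in the test of the difference itself, no member and 0% of all genes passed. Its adjusted p was 0.985 for Fasn, Acly, Acaca, Acacb and Scd1, whose unadjusted p-values lay between 0.0167 and 0.0465. Over all genes 1065 had an unadjusted p under 0.05.

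Leaving out any of the 3 TB arrays at ZT 8 took the adjusted p of Fasn to between 0.0617 and 0.0790 and that of Acacb to between 0.0986 and 0.171. Acly and Thrsp passed in TB with each array left out in turn. In the larger array set alone Fasn (0.0745) and Acacb (0.109) lost the call, while Acaca gained it in WT (0.0155). In the smaller set alone, with 1 array per group, no member was called in either genotype, and the adjusted p was 0.379 for Thrsp, 0.618 for Acly, 0.624 for Fasn and 0.733 for Acacb in TB, and 0.325 for Elovl6 and 0.424 for Thrsp in WT. Acacb also lost the call (0.0505 to 0.109) without TB ZT 0 replicate 3, TB ZT 12 replicate 1 or 2, any TB array of ZT 16, or TB ZT 20 replicate 1 or 3. Elovl6 gained it in TB without TB ZT 0 replicate 1 (0.0476) or TB ZT 4 replicate 1 (0.0463). In WT, Elovl6 reached 0.0517 without WT ZT 16 replicate 1, and Acaca passed (0.0216, amplitude 0.33) without the array that held muscle RNA. Acaca had an amplitude of 0.25 and an adjusted p of 0.172 with all arrays.

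Srebf1 was not called rhythmic in either genotype, with an amplitude of 0.13 and an adjusted p of 0.762 in WT, and an amplitude of 0.26 and an adjusted p of 0.202 in TB. Its fitted peak in TB was ZT 15.7 ± 1.3 h. Me1 had amplitudes of 0.15 and 0.41 and Pnpla3 of 0.30 and 0.38 in WT and TB, none of them called. For members without a call the fitted peak is loosely set, as the standard error of 5.30 h for Acacb in WT shows.

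**Figure D4:**
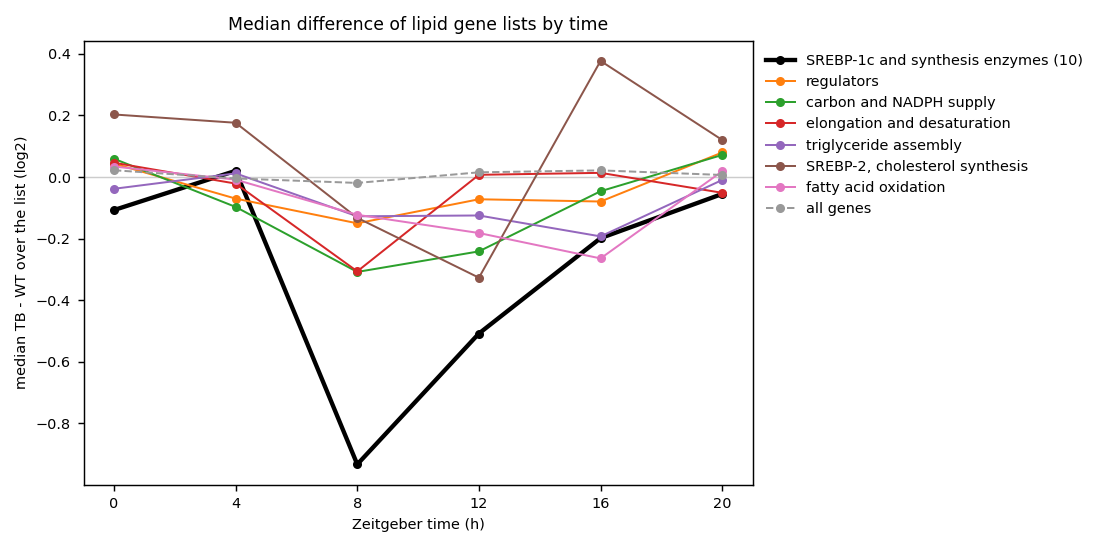
Median TB minus WT difference on the log2(intensity + 16) scale over the genes of each lipid list at the 6 Zeitgeber times; the thick black line is the 10 lipogenic genes and the dashed grey line all genes. The black line reaches -0.93 at ZT 8, while the other lists stay between -0.31 and -0.12 there.

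Other genes of lipid metabolism were set beside the members. None of the genes in the following 6 lists passed the adjusted threshold for the genotype difference over the day. Among regulators of SREBP-1c and of lipogenic transcription, 15 of 20 estimates were negative with a median of -0.04 over the day and of -0.15 at ZT 8. Mid1ip1, a partner of acetyl-CoA carboxylase related to Thrsp, was at -0.24 ± 0.08 (adjusted p = 0.256), and Scap, the escort of SREBP precursors, at -0.14 ± 0.06 (0.344). Insig1, which retains that complex in the endoplasmic reticulum, was at -0.12 and Mlx, the partner of ChREBP, at -0.10.

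Of these 20 regulators, 5 were called rhythmic in WT and 6 in TB. Lpin1, a phosphatidate phosphatase and coregulator, had amplitudes of 1.51 and 1.39 with peaks at ZT 11.6 and 11.3 in WT and TB. Insig2, the other retention protein, had amplitudes of 0.93 and 1.16 with peaks at ZT 23.8 and 23.5. Scap had an amplitude of 0.38 with a peak at ZT 6.09 in WT (adjusted p = 0.000117), and an amplitude of 0.12 in TB (0.526). Its difference in rhythm was not called.

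The genes that supply carbon and NADPH had medians of -0.31 at ZT 8 and -0.24 at ZT 12, and 5 of the 8 measured had an unadjusted p under 0.05 in the lower direction at ZT 8. Negative estimates were 8 of 8 at ZT 8 and 7 of 8 at ZT 12. Over the day 7 of 8 were negative with a median of -0.10. Pklr, the liver pyruvate kinase and a ChREBP target, was at -0.41 ± 0.13 (adjusted p = 0.190). Acss2, which makes acetyl-CoA from acetate, was at -0.24 ± 0.09 (0.327), Khk, the fructose kinase, at -0.18 and Mdh1, a malate dehydrogenase, at -0.13. None of the 8 was called rhythmic in WT and 3 were in TB, while no difference in rhythm was called for any of the 8. One of the 3 was Acss2, with an amplitude of 0.62 and a peak at ZT 23.2 in TB.

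Among 11 genes of elongation and desaturation, 8 were negative over the day and the median was -0.05, and it was -0.31 at ZT 8 and 0.01 at ZT 12. Elovl3, an elongase of long chains, had the widest estimate at -0.74 ± 0.40 (adjusted p = 0.510). Fads2, a desaturase of polyunsaturated fats, was called rhythmic in both genotypes with peaks at ZT 13.1 and 13.5. Among 19 genes of triglyceride assembly and lipid droplets, 14 were negative with a median of -0.09 over the day, -0.13 at ZT 8 and -0.19 at ZT 16. Gpam, the first acyltransferase of glycerolipid synthesis, was at -0.22 ± 0.08 (0.277), and it was called rhythmic in TB with an amplitude of 0.45 and a peak at ZT 21.1, close to those of Acly and Fasn there. In WT the amplitude of Gpam was 0.04, and its difference in rhythm between the genotypes was not called (adjusted p = 0.985 in the F test).

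The sister branch, cholesterol synthesis, and the opposing pathway, fatty acid oxidation, were set beside these without a test of the difference between lists. Of 17 genes of SREBP-2 and cholesterol synthesis, 3 were negative over the day, with a median of 0.08. By time the median was -0.13 at ZT 8, -0.33 at ZT 12 and 0.38 at ZT 16. Of the 17 estimates, 11 were negative at ZT 8, all 17 at ZT 12 and 1 at ZT 16. Fdft1, squalene synthase, was at 0.16 ± 0.08 (adjusted p = 0.471), and Hmgcs1 was called rhythmic in both genotypes. Of 17 genes of fatty acid oxidation and PPAR-alpha targets, 12 were negative with a median of -0.11 over the day. By time the median was -0.12 at ZT 8, -0.18 at ZT 12 and -0.26 at ZT 16. Of these 17 estimates, 15 were negative at ZT 8, 11 at ZT 12 and 15 at ZT 16. Cpt1a, the entry step of mitochondrial oxidation that malonyl-CoA inhibits, was called rhythmic in both genotypes with amplitudes of 0.66 and 0.65 and peaks at ZT 11.5 and 10.4.

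Correlations between the members were computed over the group means and over the arrays within groups. Over the 45 pairs of members, the median Pearson r of the 12 group means was 0.65 (0.10 to 0.93). Within groups, over the deviations of the 36 arrays, 41 of 45 pairs were positive with a median of 0.40. The 9 pairs that include Srebf1 had a median of 0.04 within groups, and the 36 pairs among the other genes had one of 0.46 (-0.09 to 0.80). All these r values come from the same 36 arrays, whose array sets differ within each group, and carry no test. The r of pairs of other genes was not computed, so these values do not set the members apart from other genes.

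Likeness over the 12 group means was ranked among genes outside the members, with predicted or unnamed gene models left out. The genes most like Fasn were Cdkl2 (r = 0.92), Cyp2c55 (0.92), Mttp (0.90), which loads lipid onto lipoproteins, Umps (0.89), a pyrimidine synthesis enzyme, and Gpam (0.89). Those most like Srebf1 were Olfr996 (0.87), Slc35d1 (0.86), Ufsp1 (0.81), Noc2l (0.81) and Zap70 (0.80). Olfr996 had group means within a range of 0.16 log2, so a high r here can come with little change. Cyp2c55 had a range of 1.77 log2 and Gpam of 1.02.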

How the data were processed

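Mouse liver RNA was measured on 36 1-colour Affymetrix arrays. The deposited values are probe set signals on a linear intensity scale, made by the authors with Affymetrix Expression Console 1.1.1 and PLIER 2.0, per the submitters' processing notes. Neither their settings nor any normalization across arrays is given in the sources used here. Medians per array ran from 36.3 to 43.3 intensity units, and the number of arrays limits the precision. Groups and replicate numbers come from the sample titles. The alleles of the TB mice are not reported here.

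Of 41345 probe sets, 23521 had 1 gene symbol in the platform annotation, 1814 had several and 16010 none. For the 1082 genes with several probe sets, the one with the highest mean was used, which left 22180 genes. Symbols were updated through Entrez identifiers for 23328 probe sets. The fits used log2(intensity + 16), which understates changes of low genes, with no filter and no further normalization.

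Models were fitted over all genes with limma 3.58.1 (lmFit, eBayes; R 4.3.3), with 12 group means and contrasts, or for rhythms with 24 h cosine and sine terms per genotype. Tests were two-sided or F tests, adjusted by Benjamini-Hochberg over all 22180 genes at 0.05. The functions were tested on simulated data. Beside the members, up to 4 genes per lipid list with the smallest p for genotype, up to 3 for WT rhythm, and 5 genes most like Srebf1 and Fasn were named. The members and lists were chosen with earlier results of these data known. Alternatives covered the pseudocount, normalization, filtering, probe set choice, weights, variance model, blocks, covariates and omitted arrays. Fits within 1 array set were added after seeing the data.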

Additional observations from a re-analysis of the deposited data

Results flagged for a closer look

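The estimates of the genotype difference for Scd1 differed in sign between times, and no difference between times was established. Every TB array lay above every WT array at ZT 0, 4 and 16, with TB minus WT differences of 0.36, 0.30 and 0.15 on the log2(intensity + 16) scale. Of all genes, 4.27%, 4.80% and 7.98% did so at these times. Every TB array lay below every WT array at ZT 8 and ZT 20, with differences of -0.81 and -0.12, as did 5.85% and 3.30% of all genes. The differences at ZT 16 and ZT 20 were smaller than their standard error of 0.16. The interaction of genotype and ZT in limma did not pass the threshold (adjusted p = 0.529) and passed it without TB ZT 8 replicate 2 (0.0130). The difference between any pair of these times was not tested. With 3 arrays per group, single arrays were not tested as outliers.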

How the results depend on the processing

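The median genotype difference over the members stayed between -0.35 and -0.25 under all alternatives run. The number of members called for the genotype difference, 0 in the chosen setting, was 1 with the genes of lowest mean left out (Fasn), 3 with array weights, 2 with the array set as a block, 1 in the larger array set alone, and 1 with the replicate number as a block (Acly, adjusted p = 0.00727). For single times it went from 0 to 1 with those genes left out, 5 with array weights, 1 with a variance trend and robust fit, 1 with the array set as a block, 1 in the larger set alone and 1 with the replicate block (Acly at ZT 8, adjusted p = 0.0259). For the interaction it was 1 with array weights (Scd1). Rhythm calls in WT went from 2 to 0 in the smaller set, and in TB from 4 to 7 with array weights, 2 in the larger and 0 in the smaller one. Leaving out each array in turn gave 0 to 2 members for genotype, 0 to 1 for single times, 0 to 1 for the interaction, 1 to 3 for WT rhythm, 2 to 5 for TB rhythm and 0 for differential rhythm. Acacb lost its TB rhythm with a pseudocount of 1 (adjusted p = 0.0549), quantile normalization (0.0501), a trend with robust fitting (0.0569) and the replicate block (0.0518). Pnpla3 turned from -0.03 to 0.058 in the larger set and ran from -0.11 to 0.083 with single arrays left out. At ZT 12, Srebf1 turned to 0.060 under quantile normalization and ran from -0.26 to 0.13, and Pnpla3 from -0.17 to 0.088, with single arrays left out. Over all genes, 39 genotype calls became 15 with a pseudocount of 1, 14 with Xist as a covariate, 59 with the replicate block, 151 with the set block, 627 with array weights, 1152 in the larger set, 0 in the smaller one and 11 to 109 with single arrays left out. The 1 call at single times became 0 with median centring or the Xist covariate, 2 with quantile normalization, the genes of lowest mean left out, a trend with robust fitting, the replicate block or only the 6 arrays of a ZT, and 3, 30 and 65 with the set block, the larger set and array weights. WT rhythm calls, 1431, became 2251 with array weights, 596 with a 6-level time factor and 16 in the smaller set, and TB calls, 1099, became 1922, 482 and 19, and 1660 with the set block. The causes were not tested. Same-numbered WT and TB arrays of a ZT correlated at -0.05 to 0.41 (14 of 18 pairs above 0.1), and 13 of 18 WT arrays correlated best with the TB array of their own number. The array of the smaller set also had the same number in both genotypes at each ZT. Not every pair was above 0.1 and no label states a pairing, so the replicate block was kept as an alternative.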
